A study of Mus musculus with 16 samples.

Results

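The mitochondrial ribosome (mitoribosome) translates the few protein-coding messages of mitochondrial DNA, all of which code for subunits of the oxidative phosphorylation complexes. Its RNAs come from mitochondrial DNA, but every one of its proteins is coded in the nucleus, made in the cytosol and imported. The proteins of the large subunit (Mrpl genes and a few Mrps genes) build the part of the particle where peptide bonds form. The chain leaves this part at the inner membrane. Those of the small subunit (most Mrps genes) build the part that binds the message and reads its codons. Many descend from bacterial ribosomal proteins and others are found only in mitochondria. Skeletal muscle is rich in mitochondria and draws on their products during sustained work.

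Transcripts of these proteins were measured on arrays of mouse tibialis anterior, a fast muscle of the lower leg. A gene was taken as a member where the RefSeq accession of an array probe led to a symbol that starts with Mrpl or Mrps and a digit. The reference table held 84 such symbols, and 6 of them are pseudogenes with no probe. The other 78 genes had 114 probes, and all 78 were measured among 24826 genes tested, with 49 in the large and 29 in the small subunit by symbol. By place in the assembled particle, Mrps30 and Mrps18a belong to the large subunit and Mrps36 to neither. The subunits below are by symbol unless stated. Where a gene had several probes, as 28 members did, the probe with the highest mean was used. All 78 members stood well above background on each of the 16 arrays.

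The samples form 4 groups of 4 arrays. Undernourished CR are calorie restricted offspring of dams that received 50% less food in week 3 of gestation, and control CR are calorie restricted offspring of dams not restricted. Undernourished AL and control AL are the offspring of the same 2 kinds of dams that were fed ad libitum. The age and sex of the mice and the degree of the calorie restriction are not given in the sources used here. Each group held 8 mice, and each array received muscle from a pool of 2. The labels do not say which mice or litters were pooled. Each pool was taken as an independent sample in the tests, although the maternal diet acted on dams and litters. In whole muscle, fewer cells of a type and less RNA per cell cannot be told apart. Values are log2 signals relative to the 75th percentile of the array, and a change is a difference of group means on that scale, with its standard error from limma (n = 4 arrays in each group).

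Several arrays stood apart. The 9 skeletal muscle markers were well above background on every array, with median levels of 8.71 to 9.01 on undernourished CR, 8.58 to 9.04 on control CR, 8.87 to 9.37 on undernourished AL and 8.95 to 9.56 on control AL arrays. The median of 29 measured brain markers (such as Snap25 and Gfap) was -5.66 to -4.70 on undernourished CR, -5.44 to -4.75 on control CR, -1.81 to 0.42 on undernourished AL and -0.66 to 3.0 on control AL arrays. Between 17 and 22 of them were well above background on CR arrays, against 22 to 29 on AL arrays. The median of 15 skin markers was -3.85 to -1.75 on undernourished CR (highest on array 2), -3.95 to -3.25 on control CR and -3.36 to -1.93 on undernourished AL arrays, and 0.29, 1.42, -0.40 and -2.96 on control AL 1 to 4. The liver median was -6.76 to -4.05 on the 16 arrays and highest on undernourished AL 3. The median of 9 leukocyte markers was -2.21 to -1.5 on undernourished CR, -2.62 to -2.07 on control CR, -2.01 to -1.05 on undernourished AL and -1.83 to -1.02 on control AL arrays, so control CR and control AL did not overlap. The median of 4 brown fat markers was -3.32 to -1.91, -3.45 to -1.62, -3.05 to -1.5 and -1.85 to -0.19 in the same order, highest on control AL 1, and that of 7 adipocyte markers overlapped in all 4 groups, at -0.27 to 1.37. All AL arrays lay on slides 1 and 2 and were scanned on 1 day, and all CR arrays lay on slides 3 and 4 and were scanned on another day, so the offspring diet cannot be told apart from slide and scan day. The part of these differences in the results below was not tested beyond the values given without these arrays.

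The mitoribosome protein transcripts that passed the test between calorie restricted and ad libitum muscle were all higher in CR, in both kinds of offspring. In undernourished offspring, 8 of the 78 members were called higher in CR (adjusted p under 0.05 from limma, Benjamini-Hochberg over all genes tested, two-sided) and 0 lower, where 10.4% of all genes tested were called higher and 9.86% lower (20.3% in either direction). In control offspring, 19 were called higher and 0 lower, where 17.2% of all genes were called higher and 15.1% lower (32.3% in either direction). The share of members called higher was thus 10.3% in undernourished offspring, near that of all genes, and 24.4% in control offspring, above it; whether it exceeds that of other genes was not tested. A change above 0 was seen in 67 of 78 members in undernourished offspring (49.7% of all genes) and in 69 of 78 in control offspring (55.1% of all genes).

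The large and small subunits had similar medians. In undernourished offspring, the median change was 0.21 over the 49 large-subunit members and 0.18 over the 29 small-subunit members, against 0.00 over all genes tested. With 1 array left out at a time these ran from 0.12 to 0.26 and from 0.13 to 0.25. Both were lowest without undernourished CR 4, where the median of all genes was -0.01 and 57 of 78 members were above 0. In control offspring, the medians were 0.31 and 0.31, against 0.06 over all genes. By place in the particle, the 51 large and 26 small members had medians of 0.21 and 0.14 in undernourished offspring. In control offspring these were 0.31 and 0.32. Calls fell on 3 of 49 large and 5 of 29 small members in undernourished offspring and on 10 of 49 large and 9 of 29 small members in control offspring. The largest called change was 0.69 in undernourished offspring and 1.01 in control offspring, so that most members moved by far less than 1 doubling.

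**Figure D1:**
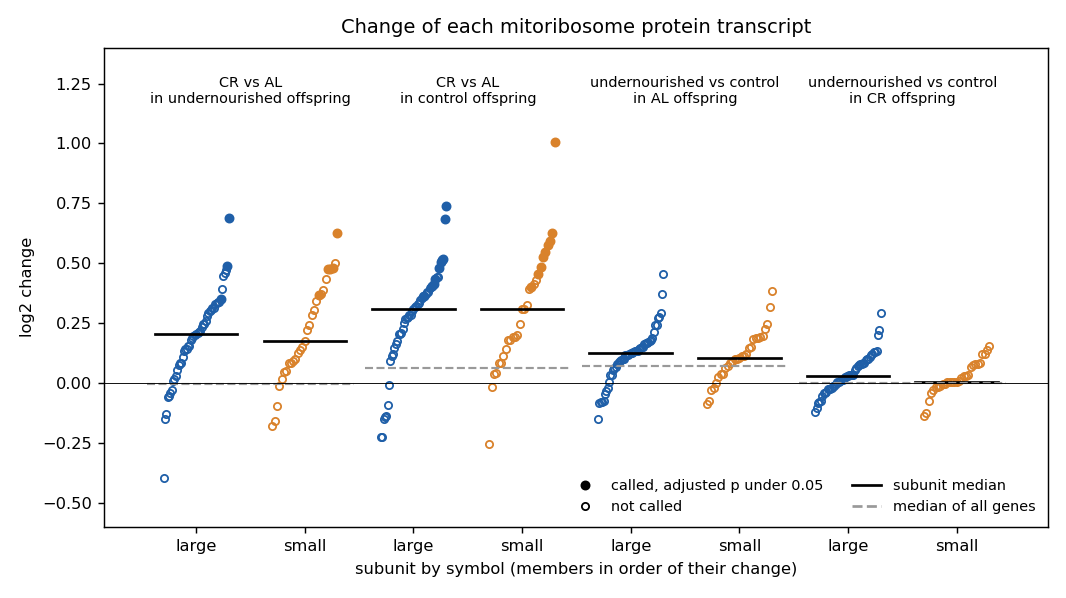
The log2 change of each member (vertical axis) in 4 comparisons, with members ordered by their change within the large and the small subunit. Filled points were called, black lines are subunit medians and grey dashed lines the median of all genes tested; both subunits sit above the all-gene median in the CR vs AL comparisons, at 0.21 and 0.18 in undernourished and 0.31 and 0.31 in control offspring.

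Array by array, the 2 subunits kept close to each other. Each member was set against its own mean over the 16 arrays, and the median of these deviations was taken per array. For the large subunit it was 0.08, 0.02, 0.01 and 0.43 on undernourished CR, 0.02, 0.15, 0.17 and 0.11 on control CR, 0.04, -0.02, -0.22 and -0.03 on undernourished AL and -0.40, -0.37, -0.17 and 0.22 on control AL arrays. For the small subunit it was 0.11, 0.02, -0.01 and 0.33 on undernourished CR, 0.00, 0.14, 0.25 and 0.13 on control CR, -0.02, -0.05, -0.20 and -0.02 on undernourished AL and -0.38, -0.32, -0.17 and 0.19 on control AL arrays. The difference between the subunits ran from -0.08 to 0.10 over the 16 arrays, while the arrays themselves ran from -0.40 to 0.43.

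Means of the large subunit were 0.14 ± 0.20 in undernourished CR, 0.11 ± 0.07 in control CR, -0.06 ± 0.11 in undernourished AL and -0.18 ± 0.29 in control AL (SD, n = 4 each). The small subunit stood at 0.11 ± 0.15, 0.13 ± 0.10, -0.07 ± 0.09 and -0.17 ± 0.26 in the same groups. The spread was widest in control AL, where arrays 1 and 2 were the lowest of all 16 and array 4 was higher than every other AL array. Of the 78 members, 1 and 1 lay above their own mean on control AL 1 and 2, against 65 on control AL 4. Among CR arrays, undernourished CR 4 stood apart, with 77 of 78 members above their own mean. Control AL 1 and 2 also had the highest brain marker medians, 3.0 and 2.6, and control AL 4 the lowest of its group, -0.66.

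**Figure D2:**
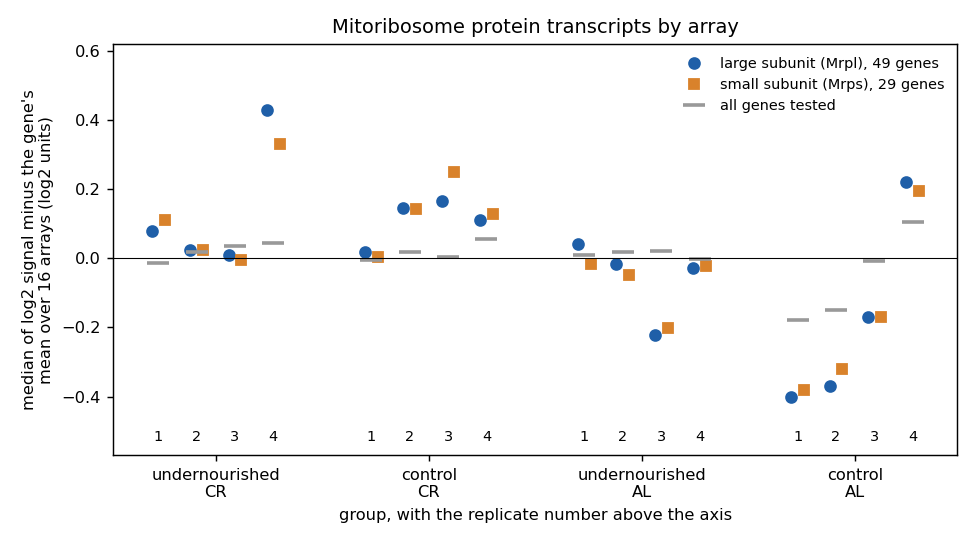
Median deviation of the large-subunit (circles) and small-subunit (squares) members from their own 16-array means, in log2 units, for each array, with the median of all genes as grey dashes. The subunits sit together on every array, control AL 1 and 2 are lowest near -0.4, and undernourished CR 4 is highest at 0.43 for the large subunit.

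In 6 of 78 members all 8 CR arrays lay above all 8 AL arrays, 3 in each subunit, and in none did all 8 lie below; over all genes these shares were 6.72% and 6.22%. Mrps23, a protein of the small subunit with no bacterial counterpart, had the widest gap. Its level was 2.92, 2.60, 2.87 and 3.24 in undernourished CR, 2.93, 2.92, 2.84 and 2.92 in control CR, 2.35, 2.15, 2.39 and 2.24 in undernourished AL and 1.64, 1.69, 2.03 and 2.23 in control AL. The lowest CR array and the highest AL array were 0.21 apart. CR exceeded AL by 0.63 ± 0.15 in undernourished offspring (1.54-fold, limma adjusted p = 0.00993) and by 1.01 ± 0.15 in control offspring (2.01-fold, adjusted p = 0.000255).

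In the large subunit the widest gap was that of Mrpl35, the counterpart of bacterial L35. It stood at 3.75, 3.82, 3.68 and 4.40 in undernourished CR, 3.68, 3.72, 3.93 and 3.80 in control CR, 3.34, 3.27, 3.07 and 3.22 in undernourished AL and 2.86, 2.86, 3.18 and 3.50 in control AL. The 8 CR arrays lay above the 8 AL arrays with a gap of 0.19, and undernourished CR 4 was the highest of all. Its change was 0.69 ± 0.17 in undernourished offspring (limma adjusted p = 0.0119) and 0.69 ± 0.17 in control offspring (adjusted p = 0.00713).

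Mrpl10, the counterpart of the bacterial protein that anchors the factor-binding stalk, had a smaller change. It measured 1.86, 1.63, 1.75 and 1.64 in undernourished CR, 1.77, 1.81, 1.78 and 1.67 in control CR, 1.32, 1.39, 1.27 and 1.49 in undernourished AL and 1.12, 1.26, 1.19 and 1.45 in control AL. The gap was 0.14, and the change was 0.35 ± 0.10 (limma adjusted p = 0.0258) in undernourished and 0.51 ± 0.10 (adjusted p = 0.00191) in control offspring. Mrpl38, a large-subunit protein without a bacterial counterpart, was separated by a gap of only 0.02. Its change was 0.28 ± 0.13 in undernourished offspring, which did not pass the test (limma adjusted p = 0.132), and 0.36 ± 0.13 in control offspring, which did (adjusted p = 0.0397). That call was lost without control AL 1, control AL 2, control CR 2, control CR 3 or control CR 4, each left out alone. It was also lost in other alternatives, among them quantile normalization and slide as a random block.

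Mrps7 and Mrps9 are counterparts of bacterial S7 and S9, which both sit in the head of the small subunit. Mrps7 read 3.49, 3.52, 3.47 and 3.41 in undernourished CR, 3.48, 3.57, 3.58 and 3.32 in control CR, 3.27, 3.10, 3.11 and 2.94 in undernourished AL and 2.94, 3.02, 3.18 and 3.0 in control AL. Every CR array was above every AL array, with a gap of 0.05. Its change was 0.37 ± 0.10 in undernourished offspring (limma adjusted p = 0.0216) and 0.45 ± 0.10 in control offspring (adjusted p = 0.00398). Mrps9 read 3.18, 3.34, 3.14 and 3.55 in undernourished CR, 3.09, 3.22, 3.49 and 3.42 in control CR, 2.71, 2.88, 2.76 and 2.95 in undernourished AL and 2.42, 2.57, 2.66 and 3.07 in control AL. Control AL 4 came within 0.02 of the lowest CR array. Its change was 0.48 ± 0.15 in undernourished offspring (limma adjusted p = 0.0356) and 0.63 ± 0.15 in control offspring (adjusted p = 0.00523).

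**Figure D3:**
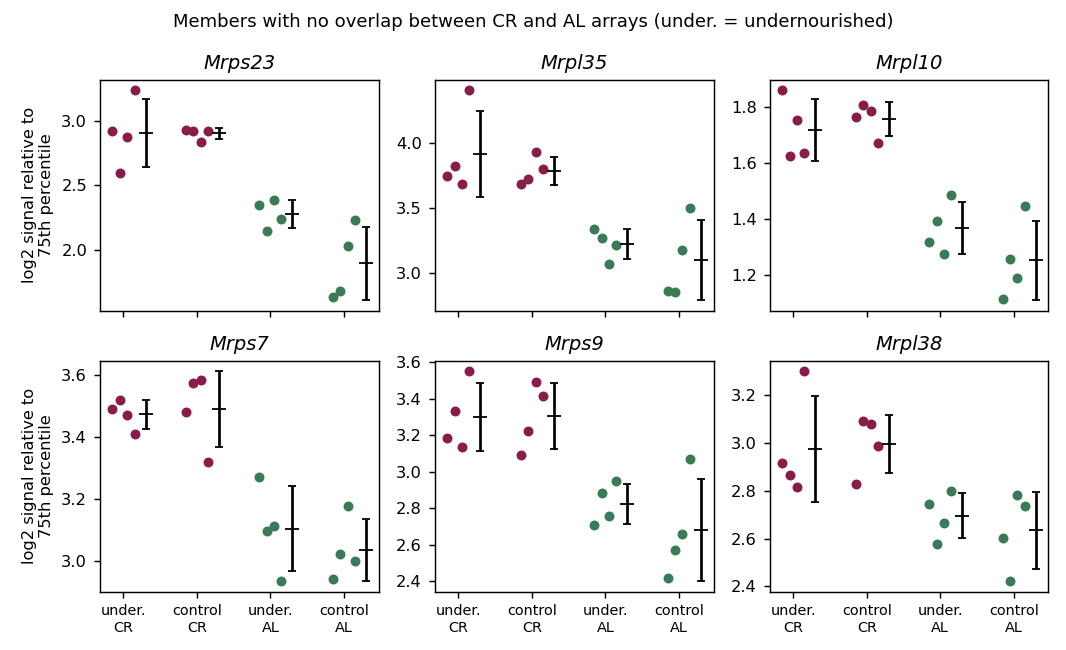
Log2 signal relative to the array's 75th percentile for the 6 members whose CR and AL arrays do not overlap, 1 point per array, with the mean and SD of each group of 4 beside its points (vertical scales differ and do not start at 0). The gap is widest in Mrps23, 0.21, and narrowest in Mrpl38, 0.02.

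Promoters of 69 of the 78 members were found in RefSeq (GRCm38.p6), from 250 bases before to 50 after the start, 75 promoters in all. They were searched on both strands for the cores of 3 motifs that are known from nuclear genes of mitochondrial proteins: NRF1, ETS factors (CCGGAAG) and YY1, whose letters appear below in capitals. The ETS core was found in 26 of 69 members (37.7%), against 9.93% of the 27025 genes in the table. The NRF1 core was found in 13 (18.8%, against 5.19%) and the YY1 core in 5 (7.25%, against 0.755%), and no match of one motif overlapped a match of another. Of the 16 members with a promoter that were called higher in control CR, 2 held the ETS core, 2 the NRF1 core and 3 the YY1 core. Of the 53 not called, 24 held the ETS core, 11 the NRF1 core and 2 the YY1 core. These matches are a description with no test. Shown are the promoters of 5 members called in both kinds of offspring or with the largest changes, with the motif letters in capitals. All 5 hold a motif. No match was found for Mrpl10, Mrps7 and Mrps15, which were also called in both and are not shown. The 5 are Mrps23 (chr11:88204138-88204437, plus strand, ETS) and Mrps9 (chr1:42850983-42851282, plus strand, NRF1), with 3 that hold the YY1 core. These are Mrpl35 (chr6:71823735-71824034, minus strand), Mrpl37 (chr4:107066817-107067116, minus strand) and Mrps11 (chr7:78782881-78783180, plus strand).
Mrps23: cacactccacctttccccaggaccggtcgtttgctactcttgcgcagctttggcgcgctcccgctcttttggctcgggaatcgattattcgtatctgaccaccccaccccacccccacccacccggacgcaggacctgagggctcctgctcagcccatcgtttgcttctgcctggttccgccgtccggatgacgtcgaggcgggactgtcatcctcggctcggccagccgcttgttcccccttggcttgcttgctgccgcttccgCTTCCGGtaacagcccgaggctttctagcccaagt
Mrps9: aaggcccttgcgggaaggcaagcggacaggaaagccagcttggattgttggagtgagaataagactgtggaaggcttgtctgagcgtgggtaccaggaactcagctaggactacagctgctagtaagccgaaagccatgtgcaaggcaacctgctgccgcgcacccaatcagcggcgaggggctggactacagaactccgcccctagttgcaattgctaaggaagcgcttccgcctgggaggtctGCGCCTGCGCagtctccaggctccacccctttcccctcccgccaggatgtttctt
Mrpl35: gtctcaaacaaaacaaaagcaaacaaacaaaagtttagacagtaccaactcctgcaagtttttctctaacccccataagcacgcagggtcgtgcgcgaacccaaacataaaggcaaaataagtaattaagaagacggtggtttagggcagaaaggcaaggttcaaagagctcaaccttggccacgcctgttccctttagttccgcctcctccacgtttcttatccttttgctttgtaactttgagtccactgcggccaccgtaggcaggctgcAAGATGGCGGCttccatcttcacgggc
Mrpl37: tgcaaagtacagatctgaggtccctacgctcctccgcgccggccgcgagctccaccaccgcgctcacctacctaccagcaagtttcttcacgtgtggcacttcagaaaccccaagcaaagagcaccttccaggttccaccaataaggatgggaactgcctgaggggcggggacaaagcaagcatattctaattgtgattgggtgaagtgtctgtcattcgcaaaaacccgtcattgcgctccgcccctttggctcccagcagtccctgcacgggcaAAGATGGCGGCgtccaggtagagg
Mrps11: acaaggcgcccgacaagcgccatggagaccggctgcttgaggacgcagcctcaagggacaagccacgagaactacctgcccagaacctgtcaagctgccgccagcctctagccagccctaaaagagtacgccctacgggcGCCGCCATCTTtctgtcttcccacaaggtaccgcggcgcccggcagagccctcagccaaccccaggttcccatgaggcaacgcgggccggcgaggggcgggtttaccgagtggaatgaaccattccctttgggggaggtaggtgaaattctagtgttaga
In Mrpl35 and Mrpl37 the YY1 core lies on the gene's strand just after the start, and in Mrps11 it lies on the other strand before it. The match of Mrps11 also lies within the neighbouring gene Mrpl46, which was not called in either kind of offspring. The ETS core of Mrps23 lies on the other strand just after the start, and the NRF1 core of Mrps9 spans the start.

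In undernourished offspring the called members were Mrpl35, Mrpl52 and Mrpl10 in the large and Mrps23, Mrps15, Mrps11, Mrps9 and Mrps7 in the small subunit. Mrpl52, a mitochondria-specific protein, had 4.47, 4.53, 4.54 and 4.80 in undernourished CR and 4.27, 4.17, 3.85 and 4.12 in undernourished AL. The 4 CR arrays lay above the 4 AL arrays, with a change of 0.49 ± 0.15 (limma adjusted p = 0.0334). Mrps15, the counterpart of bacterial S15, which binds the ribosomal RNA early in assembly, had 4.03, 3.98, 3.97 and 4.05 in undernourished CR and 3.53, 3.66, 3.36 and 3.56 in undernourished AL. These did not overlap either, and the change was 0.48 ± 0.12 (adjusted p = 0.015). Mrps11, the counterpart of S11 in the platform of the small subunit, had 1.52, 1.42, 1.04 and 1.70 in undernourished CR and 1.06, 1.0, 0.89 and 0.81 in undernourished AL. Its arrays overlapped, since undernourished CR 3 was below undernourished AL 1, and its change of 0.48 ± 0.16 lay just inside the threshold (adjusted p = 0.0485). That call was kept in 10 of 27 alternatives. The 4 CR arrays lay above the 4 AL arrays in 13 large and 8 small members, and below them in none, where 13.4% of all genes had them above. At an unadjusted p under 0.05 there were 20 members, against 34.7% of all genes.

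In control offspring the largest called change of the large subunit was that of Mrpl37, a mitochondria-specific protein, with 3.10, 2.96, 3.19 and 2.91 in control CR and 1.90, 2.44, 2.29 and 2.58 in control AL. Control AL 1 was the lowest, all 4 CR arrays lay above the AL arrays, and the change was 0.74 ± 0.14 (limma adjusted p = 0.00112). In undernourished offspring its change was 0.21 ± 0.14 and did not pass the test (adjusted p = 0.308). Mrpl45, which ties the exit of the large subunit to the inner membrane, changed by 0.52 ± 0.17 (adjusted p = 0.0298), and Mrpl18 and Mrpl13, counterparts of bacterial L18 and L13, by 0.51 ± 0.18 and 0.48 ± 0.16 (adjusted p = 0.0413 and 0.0288). Of 27 alternatives, the calls of Mrpl45, Mrpl18 and Mrpl13 were kept in 15, 12 and 17.

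In the small subunit Mrps11 changed by 0.59 ± 0.16 (limma adjusted p = 0.0113), Mrps14, a counterpart of S14, by 0.58 ± 0.19 (adjusted p = 0.0278), and Mrps2, a counterpart of S2, by 0.55 ± 0.18 (adjusted p = 0.0333). Mrps24 changed by 0.52 ± 0.17 (adjusted p = 0.0287). The remaining calls were Mrps5, Mrps15, Mrpl4, Mrpl24 and Mrpl49, which are named because few were left and not by their size. In 6 large and 6 small members the 4 CR arrays lay above the 4 AL arrays, and in none below, where 17.3% of all genes had them above. At an unadjusted p under 0.05 there were 33 members, against 42.4% of all genes.

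In control offspring 9 of the 78 members lay below 0. The 2 lowest of each subunit were, with their changes, Mrps12, the counterpart of the S12 protein at the decoding centre, at -0.26 ± 0.15 (limma adjusted p = 0.201), Mrpl41 at -0.23 ± 0.28 (adjusted p = 0.566), Mrpl9 at -0.23 ± 0.16 (adjusted p = 0.3) and Mrps31 at -0.02 ± 0.12 (adjusted p = 0.935). None passed the test, and other large-subunit members lay between Mrpl9 and Mrps31. Mrps12 read 3.81, 3.63, 3.79 and 4.2 in undernourished CR, 3.66, 3.91, 3.85 and 3.97 in control CR, 4.30, 4.03, 3.80 and 3.93 in undernourished AL and 4.01, 3.92, 4.14 and 4.34 in control AL, with CR and AL arrays overlapping. Mrpl41 had one of the widest spreads, with 4.31, 4.68, 4.17 and 5.32 in undernourished CR, 4.12, 4.76, 4.48 and 4.30 in control CR, 4.66, 4.91, 5.59 and 4.90 in undernourished AL and 4.36, 4.21, 5.08 and 4.92 in control AL. The difference from the other members is one of sign and not of a call.

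Between the 2 kinds of offspring, 7 members were called higher in both (2 large and 5 small), where 7.76% of all genes were. These are Mrpl35, Mrpl10, Mrps23, Mrps15, Mrps11, Mrps9 and Mrps7. A further 12 were called in control offspring and not in undernourished, and 1, Mrpl52, in undernourished and not in control. The difference between the offspring was itself tested as an interaction, and 0 of 78 members passed it (limma; 1 at an unadjusted p under 0.05, Mrpl37), where 0.00403% of all genes did and 9.66% had an unadjusted p under 0.05. The median interaction value was -0.08 in the large and -0.09 in the small subunit, against -0.06 over all genes. It was above 0 in both subunits without control AL 1 and 2, without 5 arrays high in skin or liver markers, and with an index of brain markers as a covariate. For Mrpl37 the CR minus AL change differed by -0.53 ± 0.19 (undernourished minus control, adjusted p = 0.493), and for Mrps23 by -0.38 ± 0.21 (adjusted p = 0.558). Mrpl44, Mrpl9, Mrps5 and Mrps21 had interaction values of -0.27 ± 0.19, 0.31 ± 0.22, -0.33 ± 0.19 and -0.27 ± 0.20, none of which passed.

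Fewer members were called in control offspring without the AL arrays that stood apart. Without control AL 1 and 2, 4 members were called higher (Mrpl10, Mrpl37, Mrps23 and Mrps7), which is 5.13% of the members against 7.72% of all genes, with a member median of 0.11 against -0.04 over all genes. A brain index was also used as a covariate, which is the brain marker median on the linear scale relative to control AL 1, with 1.0, 0.757, 0.168 and 0.0793 on control AL 1 to 4. With it 1 was called (Mrps23), 1.28% of the members against 5.74% of all genes, with a member median of 0.05 against -0.07. Without 5 arrays on which skin or liver transcripts were raised (undernourished CR 2, undernourished AL 3 and control AL 1, 2 and 3), none was called in control offspring, and the member median of -0.09 was close to -0.11 over all genes. In that setting control AL is 1 array, assumed to vary like the other groups, and 1.2% of all genes were called higher. In undernourished offspring the same settings gave 11, 9 and 3 members called higher (14.1%, 11.5% and 3.85%, against 11.9%, 11.7% and 6.67% of all genes), and the member median was 0.20, 0.15 and 0.18 against 0.00, -0.02 and 0.00 over all genes. The 3 were Mrpl35, Mrps15 and Mrps23. Single arrays mattered as well. Leaving out 1 array at a time gave 4 to 12 calls in undernourished offspring. It was 4 without undernourished CR 1, undernourished CR 2 or undernourished AL 3 (5.13% in each, against 7.89%, 8.14% and 7.58% of all genes). It was 5 without undernourished CR 4, undernourished AL 2 or undernourished AL 4 (6.41% in each, against 9.52%, 8.29% and 7.89%). The 12 came without control AL 4 (15.4%, against 12%). In control offspring it gave 9 to 44 calls. It was 9 without control CR 3 or control AL 1 (11.5% in each, against 14.2% and 12.3% of all genes). It was 10 without control AL 2 (12.8%, against 13.1%) and 12 without control CR 4 (15.4%, against 14.2%). The 44 came without control AL 4 (56.4%, against 21.2%).

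The count of calls also moved with the processing. With slide as a random block, 5 members were called higher in undernourished and 11 in control offspring (6.41% and 14.1%, against 7.99% and 14.2% of all genes). With normexp background correction 26 and 38 were called higher (33.3% and 48.7%, against 12.1% and 16.6% of all genes), at member medians of 0.27 and 0.33, while the median of all genes was -0.24 and -0.17. Under quantile normalization 8 members were called higher in undernourished offspring (10.3%, against 13.7% of all genes), with a median of 0.13 against 0.08 over all genes. In control offspring 10 were called higher (12.8%, against 22.3% of all genes) and 3 lower (Mrpl27, Mrpl57 and Mrps12), and the member median of 0.13 was below the 0.16 of all genes. In log2 values of the authors' deposited table, 77 and 73 of the 78 members were called higher in undernourished and control offspring, where 41.6% and 45.9% of all genes were called higher. The member medians there were 0.78 and 0.77, against 0.24 and 0.29 over all genes. In control offspring the members' share called higher was thus above that of all genes as reported, with normexp and in the authors' table, near it with the slide block and below it under quantile normalization.

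**Figure D4:**
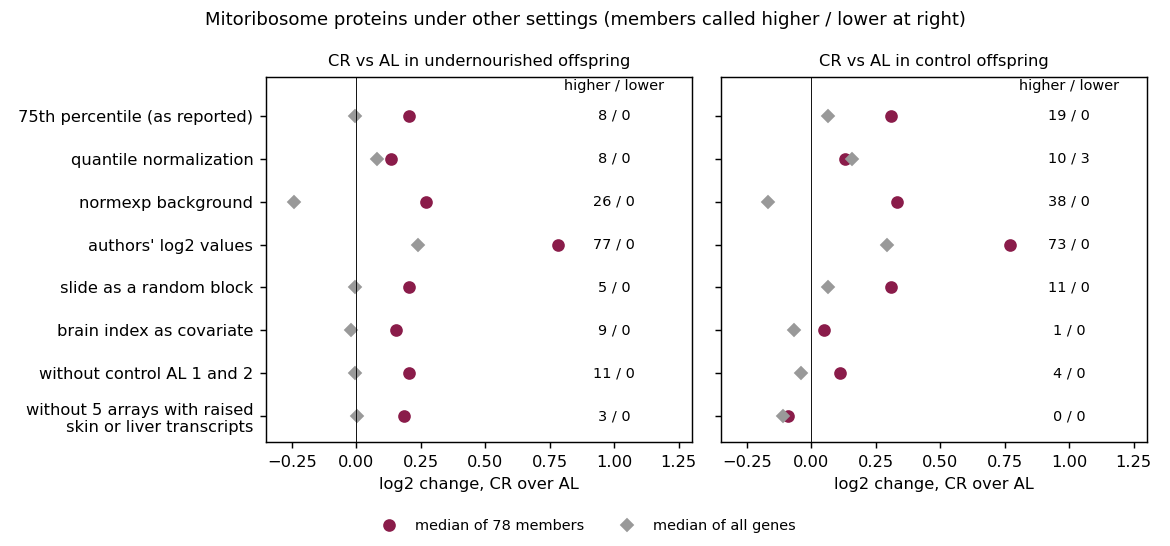
Median log2 change of the 78 members (circles) and of all genes tested (diamonds) in CR over AL muscle under 8 settings, with the numbers of members called higher and lower at the right. In undernourished offspring the member median stays above that of all genes in all 8; in control offspring it falls below it under quantile normalization, 0.13 against 0.16, and is -0.09 against -0.11 without the 5 arrays.

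Maternal undernutrition moved no member past the test. In AL offspring, 0 of 78 members were called (limma; 4 at an unadjusted p under 0.05), where 0.0322% of all genes were (0.0121% higher and 0.0201% lower) and 19.3% had an unadjusted p under 0.05. The median difference, undernourished minus control, was 0.13 in the large and 0.11 in the small subunit, against 0.07 over all genes. The sign turned in 3 settings: the large and small medians were -0.11 and -0.0524 with the brain index as a covariate, -0.10 and -0.0523 without control AL 1 and 2, and -0.22 and -0.22 without the 5 arrays high in skin or liver markers. Mrpl37 had the smallest p, with a difference of 0.45 ± 0.14 (adjusted p = 0.155). Its undernourished AL arrays (2.60, 2.77, 2.77 and 2.88) lay above its control AL arrays (1.90, 2.44, 2.29 and 2.58). Mrps5, a counterpart of S5, also had no overlap, with 3.20, 3.15, 3.22 and 3.46 against 2.65, 2.94, 3.09 and 3.07 and a difference of 0.32 ± 0.13 (adjusted p = 0.208). Without control AL 4, 2 members (Mrpl37 and Mrps23) were called, where 2319 of the 24826 genes tested were. Mrpl37 and Mrps5 were the only 2 members with no overlap, where 3.12% of all genes had the undernourished arrays above. Mrpl44, which has the fold of an RNase III, Mrps23, Mrpl16 and Mrps17 differed by 0.29 ± 0.13, 0.38 ± 0.15, 0.27 ± 0.15 and 0.19 ± 0.13 (adjusted p = 0.24, 0.187, 0.342 and 0.469).

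Within slides the AL difference did not keep its sign. On slide 1, which held replicates 1 and 2, the large subunit differed by a median of 0.41 and the small by 0.33, against 0.17 over all genes, and 49 of 49 and 28 of 29 members were above 0. On slide 2, which held replicates 3 and 4, the medians were -0.17 and -0.12, against -0.04, and 6 and 5 members were above 0.

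In CR offspring 0 members were called (limma; 0 at an unadjusted p under 0.05), where 0% of all genes were called and 2.88% had an unadjusted p under 0.05, and the medians were 0.03 and 0.01 against 0.00 over all genes. Mrpl39 had the smallest p, with 3.56, 3.54, 2.98 and 3.86 in undernourished CR and 3.38, 2.95, 3.34 and 3.09 in control CR, a difference of 0.29 ± 0.20 with overlapping arrays (limma adjusted p = 0.9999). No member had undernourished and control CR arrays apart, where 1.37% of all genes had the undernourished above. On slide 3 the large and small medians were -0.01 and 0.02, and on slide 4 they were 0.09 and 0.06. Mrpl9, Mrpl22, Mrps31, Mrps11 and Mrps2 are the other members with the smallest p, with differences between -0.14 ± 0.16 and 0.22 ± 0.16, none of which passed. Averaged over both offspring diets, the maternal difference passed the test in 0 members (limma; 0 at an unadjusted p under 0.05) and in 0% of all genes (2609 genes at an unadjusted p under 0.05), with medians of 0.07 and 0.06 against 0.03 over all genes.

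Members on a list of those with a bacterial counterpart and members outside it both had medians above 0. The list is not complete: Mrps24, Mrps28 and Mrpl55 are also relatives of bacterial proteins and were counted outside it. In undernourished offspring, calls fell on 2 of 29 large and 4 of 14 small members on the list. Outside it they fell on 1 of 20 large and 1 of 12 small members, where 10.4% of all genes were called higher. Of these 4 classes only the small members on the list lay above that share. In control offspring, the counts were 6 of 29, 7 of 14, 4 of 20 and 2 of 12 in the same order, where 17.2% of all genes were called higher. Mrps23 and Mrps24 made up the 2 of 12. Medians in control offspring were 0.32, 0.42, 0.30 and 0.22. The difference between these classes was not tested. Mrps18a, Mrps18b and Mrps36 were counted apart, and 0 of the 3 were called in either kind of offspring; Mrps36 is now known as a subunit of the oxoglutarate dehydrogenase complex. The spread between replicates also differed by group, with a median SD of the members of 0.21 in undernourished CR, 0.12 in control CR, 0.15 in undernourished AL and 0.29 in control AL.

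Where a member had further probes, these mostly moved the same way. The 28 such members had 36 further probes, of which 29 had the sign of the used probe in undernourished and 30 in control offspring. In control offspring 14 further probes were called, all of them higher, and 9 of the 10 members whose used probe was called had a further probe called the same way. In undernourished offspring it was 2 of 5, and 11 further probes were called, 10 of them higher. The lower one reads another transcript of Mrps33 (-0.47), whose used probe was not called. Mrpl40 was not called by its used probe, with 0.22 ± 0.17 and 0.27 ± 0.17, while both of its further probes were called higher in undernourished offspring (0.60 and 0.75) and in control offspring (0.56 and 0.59). Mrps2 had a further probe of opposite sign that was not called, at -0.32 and -0.16.

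Other genes of mitochondrial translation were measured beside the members. Of all genes tested, 10.4% were called higher in undernourished and 17.2% in control offspring, with median changes of 0.00 and 0.06. Aminoacyl-tRNA synthetases, which charge mitochondrial tRNAs, were called higher in 6 of 16 in undernourished and 10 of 16 in control offspring, with medians of 0.31 and 0.44. Assembly and rRNA modification factors were called higher in 8 and 11 of 23 (medians 0.27 and 0.36), and translation factors in 3 and 4 of 15 (medians 0.24 and 0.29). The mitoribosome proteins outside the symbol rule, Dap3, Ptcd3, Aurkaip1, Chchd1 and Gadd45gip1, were called in 0 of 5 in either. Without the same 5 arrays, which leaves 1 control AL array, fewer of these genes were called in control offspring. In undernourished offspring the calls fell to 2 synthetases, 4 assembly factors and 2 translation factors, where 6.67% of all genes were called higher. With 1 array left out at a time, control offspring gave 7 to 11 synthetases, 10 to 12 assembly factors and 2 to 9 translation factors called. Each was lowest without control AL 1 and highest without control AL 4, where 12.3% and 21.2% of all genes were called higher. In undernourished offspring the ranges were 4 to 7, 5 to 9 and 2 to 3, where 7.58% to 12% of all genes were.

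Among the synthetases, Wars2, which charges the tryptophan tRNA, rose by 0.80 ± 0.19 in undernourished and 1.01 ± 0.19 in control offspring (limma adjusted p = 0.00915 and 0.0012). Nars2 (asparagine) rose by 0.56 ± 0.13 in undernourished offspring (adjusted p = 0.00933) and Fars2 (phenylalanine) by 0.68 ± 0.13 in control offspring (adjusted p = 0.0014). Noa1, a GTPase of small-subunit assembly, rose by 1.02 ± 0.14 in control offspring (adjusted p = 0.000135), and Ybey, an endoribonuclease needed for the small subunit, by 0.76 ± 0.16 and 0.93 ± 0.16 in undernourished and control offspring (adjusted p = 0.00454 and 0.000614). Grsf1, an RNA-binding protein of mitochondrial RNA granules, rose by 0.62 ± 0.13 in undernourished offspring (adjusted p = 0.0048).

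Gfm1, the elongation factor that moves the ribosome along the message, rose by 0.93 ± 0.18 in control offspring (limma adjusted p = 0.00159), and Slirp, which protects mitochondrial messages, by 0.55 ± 0.18 (adjusted p = 0.0269). Rmnd1 and Mtfmt, which formylates the initiator tRNA, rose by 0.99 ± 0.23 and 0.64 ± 0.13 in undernourished offspring (adjusted p = 0.00914 and 0.00444). Of 6 transcription genes, Tefm, an elongation factor, rose by 0.54 ± 0.16 in control offspring (adjusted p = 0.0162), and Mterf1b fell by 0.76 and 0.65 on the log2 scale in undernourished and control offspring (adjusted p = 0.00384 and 0.0049). With 1 array left out, the limma adjusted p reached 0.0542 for Tefm and 0.0831 for Slirp. It stayed under 0.05 for Gfm1, Rmnd1, Mtfmt and Mterf1b. Mterf1b has a close copy, Mterf1a, and a probe may read both.

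Cytosolic ribosomal proteins, which build the other ribosome of the cell, moved in a similar range. Of 78 measured, 13 were called higher and 1 lower in undernourished offspring (16.7% higher, against 10.4% of all genes). In control offspring 20 were called higher and 2 lower (25.6% higher, against 17.2%). The medians were 0.25 and 0.25, against 0.00 and 0.06 over all genes. These counts also moved with single arrays, taking calls in either direction. In undernourished offspring they ran from 10 without undernourished AL 3 to 16 without control AL 4, where 7.58% and 12% of all genes were called higher. In control offspring they ran from 9 without control AL 1 to 36 without control AL 4, where 12.3% and 21.2% of all genes were called higher. Rps26 rose by 0.88 ± 0.12 and Rps19 changed by -0.83 ± 0.21 in undernourished offspring (limma adjusted p = 0.0004 and 0.0119). In control offspring Rps25 rose by 0.75 ± 0.13 and Rpl27a changed by -0.79 ± 0.26 (adjusted p = 0.000696 and 0.0296). With 1 array left out, the limma adjusted p of Rpl27a reached 0.0985, and those of Rps26, Rps19 and Rps25 stayed under 0.05. These genes have many near-identical copies, so a probe can read more than 1.

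**Figure D5:**
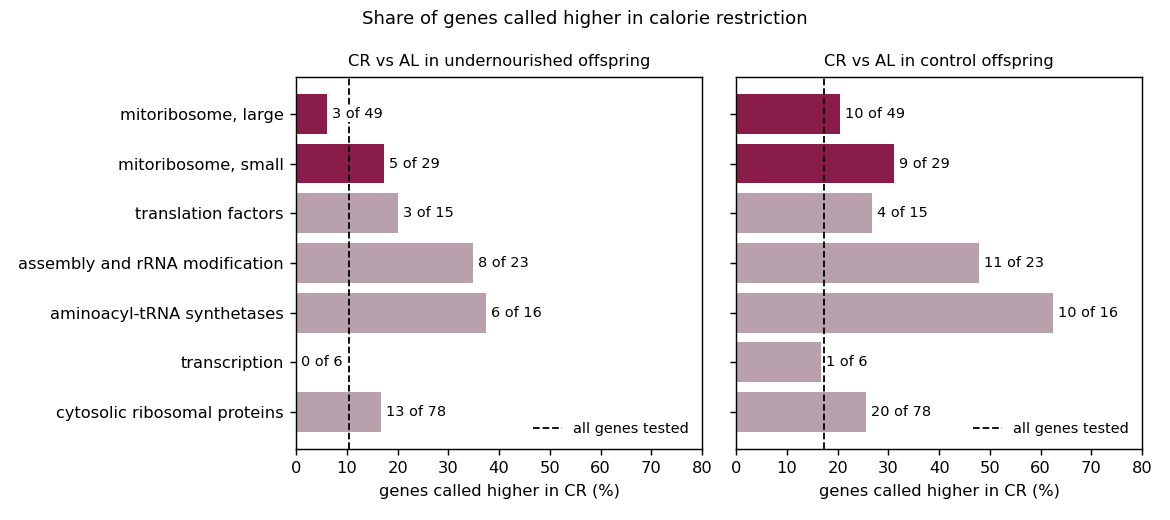
Share of the genes of each list that were called higher in CR than AL muscle, with the counts at the bars and the share of all genes tested as a dashed line (10.4% in undernourished and 17.2% in control offspring). The large subunit lies below the line in undernourished offspring, with 3 of 49, and the synthetases are highest in both, with 6 of 16 and 10 of 16.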

How the data were processed

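The authors hybridised 1-colour (Cy3) Agilent arrays with cRNA made from 200 ng of RNA per pool, per the labels' protocols, and read them with Agilent Feature Extraction 10.5.1.1, per the file headers. The deposited intensity is the processed signal. Per the file headers it was corrected for background and for spatial trend on each array, with no step between arrays. Spot types and flags of 0 or 1 are other deposited values. The processed signal was taken to log2 minus the log2 of each array's 75th percentile (387 to 829), over 43379 non-control spots of 45018, leaving out 53 to 176 outlier spots per array. The percentiles had fewer digits on CR arrays, such as 691.0 and 713.5 on control CR 1 and 2. On control AL 1 and 2 they were 589.4971 and 434.3298. The stored precision may thus differ with the offspring diet, and its part in small gaps was not tested. Between 66.4% and 78.5% of spots were well above background; the number of arrays limits the precision.

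A probe entered the test if at least 4 arrays had it well above background (32079 of 41174). RefSeq accessions gave symbols to 24844 probes and not to 16330, and an unnamed probe stood for itself. Limma 3.58.1 in R 4.3.3 fitted 1 mean per group over all 16 arrays (lmFit, eBayes), with Benjamini-Hochberg adjustment over 24826 genes and calls at an adjusted p under 0.05. The method was tested on simulated data with independent noise on each array and planted changes larger than those of most members. That test does not cover slide effects, RNA of other tissues or smaller changes. Per subunit and comparison, the members named are those called with the largest changes (up to 6), else the 3 with the smallest p, plus members whose CR and AL arrays do not overlap and the 2 per subunit with the most negative change in control offspring; further lists give up to 2 called genes per comparison. Members and lists were chosen with earlier results of these data known.

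Alternatives were quantile normalization, normexp (offset 50), other filters, the mean of a gene's probes, slide and replicate blocks, a brain index as a covariate, left-out arrays and the authors' table. Normexp used the median spot signal and local background, capped at its 99th percentile. Log2 values of the same arrays come from a table that the authors deposited. Every probe of that table has a median of 0 over the 16 columns. Its array differences followed the scanner's with a median slope of 0.781 between arrays of one offspring diet and 0.831 between a CR and an AL array, where the intercept was 0.407 (CR minus AL). Its direction and centring are thus known; its exact scale and normalization are not given in the sources used here. Its column medians, in replicate order, were 0.0262, 0.0322, 0.0336 and 0.0167 in undernourished CR, 0.0264, 0.0297, 0.0301 and 0.037 in control CR, -0.0432, -0.0232, -0.00849 and -0.00844 in undernourished AL and -0.0874, -0.0994, -0.0262 and -0.00372 in control AL. Replicate numbers appear in the labels, but same-numbered arrays of different groups did not deviate together (median correlation 0.0145, from -0.145 to 0.440 over 24 pairs). Arrays of different groups on the same slide had a higher median correlation, 0.129 (from -0.0248 to 0.440 over 16 pairs). The main fit had no term for slide.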

Additional observations from a re-analysis of the deposited data

Results flagged for a closer look

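An array far from the other 3 of its group was looked for in 120 sets of 4 arrays (27 named members, the 2 subunit medians and their difference, in 4 groups). It was found in 9, and chance gives about 1 in 20. In undernourished CR, array 4 was high for Mrpl13 (4.66, others 4.29 to 4.33), Mrps24 (4.25, others 3.74 to 3.80), Mrps17 (3.91, others 3.45 to 3.50) and the large-subunit median (0.43). In control CR, array 3 was low for Mrps23 (2.84, others 2.92 to 2.93) and high for Mrps11 (1.76, others 1.46 to 1.51), and array 1 was low for Mrps17 (3.38, others 3.53 to 3.56). In undernourished AL, array 3 was low for the small-subunit median (-0.20). In control AL, array 4 was high for Mrpl39 (3.17, others 2.56 to 2.65).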

How the results depend on the processing

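The count of members called in CR against AL depended on the processing. The share of all genes called moved too and stands beside these counts in the results above. In undernourished offspring (8 as reported) it was 26 with normexp, 5 with slide as a random block, 77 with the authors' log2 values and 3 without the 5 arrays high in skin or liver markers (the raised arrays). Leaving out 1 array gave 4 to 12. The lowest values were 4 without undernourished CR 1, undernourished CR 2 or undernourished AL 3, and 5 without undernourished CR 4, undernourished AL 2 or undernourished AL 4. In control offspring (19 as reported) it was 38 with normexp, 11 with the slide block, 73 with the authors' values, 1 with the brain index as a covariate, 4 without control AL 1 and 2, and 0 without the raised arrays. Leaving out 1 array gave 9 to 44, with 9 without control CR 3 or control AL 1, 12 without control CR 4, 10 without control AL 2 and 44 without control AL 4. The maternal count in AL offspring was 0 to 2 when 1 array was left out. Without control AL 4, Mrpl37 and Mrps23 were called, where 2319 of all genes tested were. With the replicate block, 10 and 23 members were called in undernourished and control offspring and 0 in the other comparisons. That is 12.8% and 29.5% of the members, against 10.2% and 17% of all genes called higher. Same-numbered arrays did not deviate together, so the numbers are not taken as pairs.

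With the authors' log2 values the median change was 0.78 (large) and 0.78 (small) in undernourished and 0.77 and 0.78 in control offspring. Over all genes it was 0.24 and 0.29 in that table. In control offspring the large median was also 0.0194 with the brain index, 0.0894 without control AL 1 and 2 and -0.096 without the raised arrays, and the small one 0.0797, 0.139 and -0.0618, and 0.13 under quantile normalization. Under the same 3 settings the maternal median in AL offspring turned its sign, to -0.11, -0.10 and -0.22 (large, 0.13 as reported) and -0.0524, -0.0523 and -0.22 (small, 0.11 as reported), and so did the interaction median, to 0.16, 0.14 and 0.33 (large, -0.08 as reported) and 0.0824, 0.0823 and 0.25 (small, -0.09 as reported).

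Some single genes changed sign. Without the raised arrays these were, in control offspring, Mrpl13 (-0.0158), Mrpl18 (-0.0348), Mrps14 (-0.0488) and Slirp (-0.0076), for the interaction Mrpl44 (0.0399), Mrps21 (0.0695) and Mrps23 (0.0922), and for the maternal difference in AL offspring Mrps17 (-0.0303). With the authors' values Mrpl41 (0.28), Mrpl9 (0.27), Mrps12 (0.20) and Mrps31 (0.43, limma adjusted p = 0.000196) were above 0 in control offspring, as was Mrpl41 with the mean of its probes (0.0432). Mrps31, near 0 as reported, was 0.0252 with normexp, 0.0079 and 0.0062 without control CR 1 or 2, and 0.0281 and 0.0531 without control AL 3 or 4. In the maternal difference of CR offspring, Mrps2 ran from -0.0581 without undernourished CR 4 to 0.26 without undernourished CR 3. The cause was not tested. Of 27 alternatives, the call in undernourished offspring was kept in 27 for Mrps23, Mrpl35 and Mrps15, 22 for Mrpl10 and Mrps7, 19 for Mrpl52, 18 for Mrps9 and 10 for Mrps11. In control offspring it was kept in 26 for Mrps23, 25 for Mrpl10 and Mrpl37, 24 for Mrpl35, Mrps9 and Mrps11, 18 for Mrps2 and Mrps24, 17 for Mrpl13 and Mrps14, 15 for Mrpl45 and 12 for Mrpl18. Signals under the background flag did not limit the members, since all were well above it.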
